A study of Homo sapiens with 32 samples.

Results

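Keratins are the intermediate filament proteins of epithelial cells. A type I and a type II keratin pair as a heterodimer, and the dimers assemble into the filaments that tie desmosomes together across the cell sheet. Simple epithelia such as the gut lining are known for KRT8 and KRT18 with KRT19 and KRT20, while stratified epithelia use KRT5, KRT14 and KRT15 in the basal layer, KRT10 above it, and KRT6A on injury. Pathologists use KRT7 and KRT20 to trace the origin of carcinomas.

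The 10 keratins described here are KRT6A, KRT7, KRT8 and KRT80 (type II) together with KRT10, KRT15, KRT18, KRT19, KRT20 and KRT23 (type I). They were taken by symbol from a list, out of 57820 genes in the HCT116 count files and 11887 in the HEK293 files. All 10 were listed for HCT116 and 4 (KRT8, KRT10, KRT18 and KRT19) for HEK293. HCT116 is a human colorectal cancer line and HEK293 a human embryonic kidney line. Another 45 keratin genes were found in the HCT116 files and 0 of them in the HEK293 files.

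The RNA samples are 26 of the 32 of the study, which deleted distal DNA elements with Cas9 and asked what the transcriptome did. All libraries are from clonal populations sorted for Cas9-GFP, with an empty guide vector in controls and guides to the element in deletion clones. In HCT116 there were 4 control clones and 1 E7 deletion clone, each with RNA extracted on days A, B and C (12 and 3 libraries), and 3 clones lacking 18qNE with 1 library each, on days A, B and A. Control clones 1 and 2 were extracted again on day D beside 2 18qE deletion clones. HEK293 gave 2 control and 2 E7 deletion libraries, all of day E, and the labels of the E7 pair name the same clone. In both lines the E7 group is therefore labelled as 1 clone. What the deletion did and what sets the clone apart cannot be told apart there.

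Libraries held 9871667 to 14862268 gene counts (days A, B and C), 22972412 to 24887785 (day D) or 26491576 to 34790193 (HEK293). Levels are given as CPM, reads per 1000000 gene counts. They are not corrected for gene length, so they are compared between libraries and not between genes. In the HCT116 control libraries of days A to C, 9 intestinal epithelium markers summed to 486 to 624 CPM, with 0 to 4 of the 9 at 0. There, 9 stratified epithelium markers summed to 324 to 452 CPM, with 1 to 4 at 0. Of either list, 4 genes had enough counts to be tested among the control clones. In the same libraries 8 leukocyte and endothelial genes summed to 1.78 to 4.08 CPM.

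The 10 keratins took 0.352% to 0.608% of all gene counts in the 22 HCT116 libraries. KRT8, KRT18 and KRT19, the simple-epithelium keratins, held 97.2% to 98.4% of the reads of the 10, and the 10 held 99.2% to 99.9% of the reads of all 55 keratins. Of the other 45, 3 averaged at least 1 CPM: KRT13 at 5.77 CPM, KRT222 at 3.11 CPM and KRT81 at 1.04 CPM. No read fell on 8 of them in any HCT116 library. KRT1, the type II partner of KRT10 in the epidermis, was 1 of these 8, and a total of 0 allows a level of up to 0.00927 CPM over the 22 libraries. KRT5, the basal-layer partner of KRT14 and KRT15, averaged 0.410 CPM.

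The 10 differed widely in how steady they were. KRT10 was the steadiest, at 25.6 to 42.6 CPM across the 22 HCT116 libraries, a highest-to-lowest ratio of 1.66. KRT19 spanned 732 to 1262 CPM, KRT18 673 to 1268 CPM and KRT8 1837 to 3730 CPM, with ratios of 1.73, 1.88 and 2.03. At the other end, KRT6A spanned 0.336 to 46.7 CPM, a ratio of 139, and KRT7 0.791 to 29.5 CPM, a ratio of 37.3. KRT20 ran from 0.421 to 10.2 CPM, KRT80 from 1.38 to 15.3 CPM, KRT15 from 6.53 to 35.9 CPM and KRT23 from 6.96 to 29.0 CPM.

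**Figure D1:**
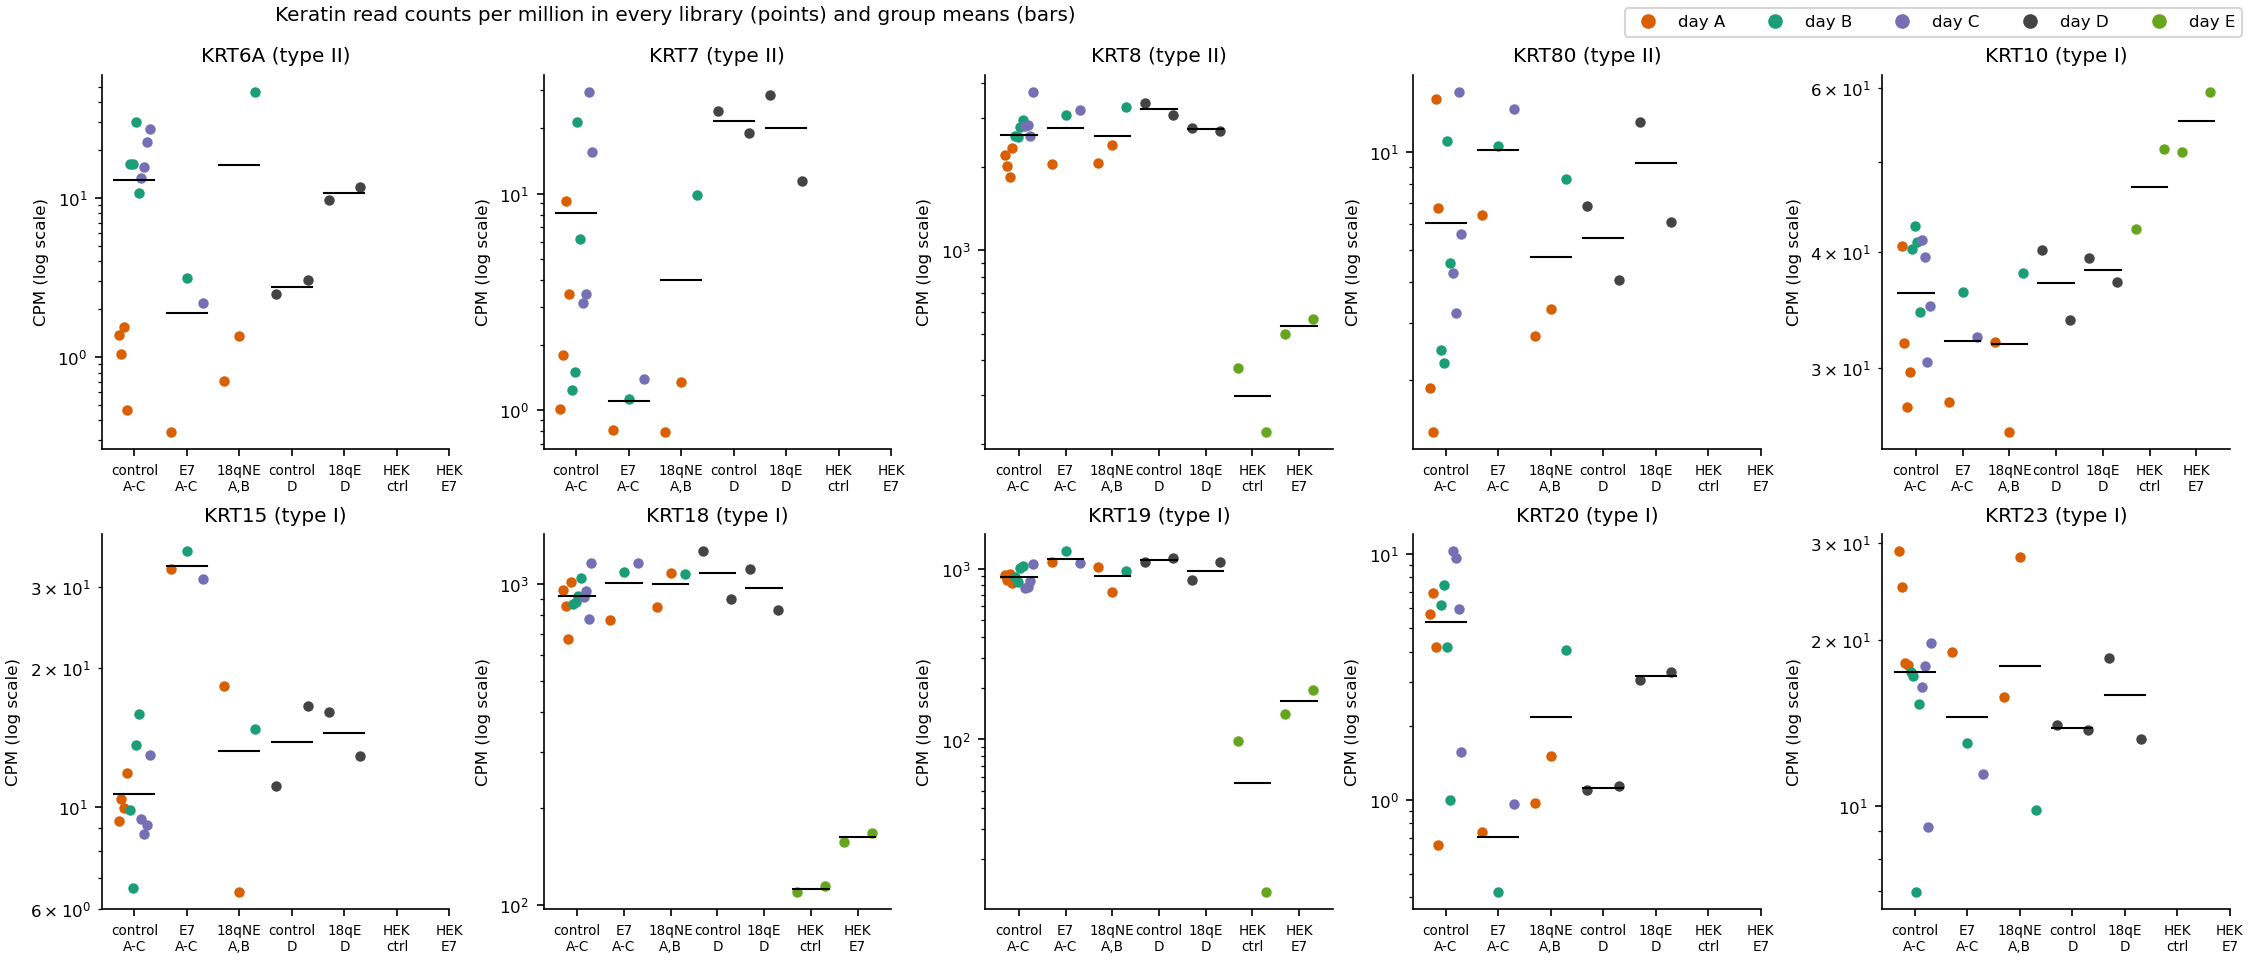
Each panel plots 1 keratin, with CPM on a log scale against the group and extraction days. Points are libraries coloured by day and bars are group means. KRT15 in the 3 E7 libraries (31.2 to 35.9 CPM) lies above the 12 control libraries. KRT6A is split by day within the HCT116 control and E7 groups. The 6 panels without HEK293 points are keratins that the HEK293 files do not list.

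The RefSeq table used here (GRCh38.p14) held promoter entries for 3 of the 10, and these happen to cover the range of behaviour. They are KRT8, with the highest CPM, KRT10, the steadiest, and KRT20, one of those that varied most. The 250 bases before each start are shown so that a highly variable and a steady keratin can be read side by side. A single start per gene was taken, and which start these cells use was not tested. They lie at chr12:52926470-52926719, chr17:40822615-40822864 and chr17:40885243-40885492, all read on the minus strand, 5′ to 3′. Capitals mark the TATA box motif TATAAA.
KRT8: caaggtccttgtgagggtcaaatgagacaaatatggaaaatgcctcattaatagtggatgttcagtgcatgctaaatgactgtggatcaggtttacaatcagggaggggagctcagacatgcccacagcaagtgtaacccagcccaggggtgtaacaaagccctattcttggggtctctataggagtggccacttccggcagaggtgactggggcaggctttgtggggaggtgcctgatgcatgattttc
KRT10: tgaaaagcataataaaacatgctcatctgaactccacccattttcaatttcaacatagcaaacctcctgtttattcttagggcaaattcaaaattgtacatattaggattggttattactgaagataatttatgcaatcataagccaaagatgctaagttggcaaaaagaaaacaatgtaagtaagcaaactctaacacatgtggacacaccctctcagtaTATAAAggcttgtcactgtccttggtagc
KRT20: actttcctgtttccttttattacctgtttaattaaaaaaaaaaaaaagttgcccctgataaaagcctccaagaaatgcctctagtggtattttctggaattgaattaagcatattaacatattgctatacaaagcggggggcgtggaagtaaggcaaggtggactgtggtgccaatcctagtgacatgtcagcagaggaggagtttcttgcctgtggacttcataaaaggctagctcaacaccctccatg
TATAAA begins at base -29 of KRT10 and is in 1 of these 3 windows, against 11.1% of 27305 RefSeq promoter windows of the same length. The GC box GGGCGG (42.3% of all windows), the AP-1 motif TGANTCA (6.60%) and the E-box CACCTG (17.5%) were each in 0 of the 3, on either strand. None of the 4 motifs contains another, and a match is a string of letters, not a bound site.

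The first comparison asked what changed in the HCT116 clone without E7. KRT15 and KRT19 rose and KRT6A fell, which is 3 of the 10 keratins, while 13.9% of the 17664 genes tested were called (edgeR quasi-likelihood test, Benjamini-Hochberg adjusted p under 0.05). The median log2 change over the 10 was -0.03, beside -0.01 over all tested genes. With the 3 18qNE clones in place of the controls, 0 keratins and 79 genes passed, with changes of 1.39 for KRT15, 0.38 for KRT19 and -3.26 for KRT6A (edgeR adjusted p of 0.366, 0.884 and 0.862). That fit summed E7 over days A and B, while the 18qNE libraries are of days A, B and A. Day is therefore not balanced in it. KRT6A read 0.703, 46.7 and 1.35 CPM in 18qNE clones 1 to 3. In these bulk libraries, fewer cells of a type and less RNA per cell cannot be told apart.

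KRT15, a type I keratin of basal cells in stratified epithelia, stood at 32.9, 35.9 and 31.2 CPM in the E7 clone on days A, B and C. The control clones ranged from 9.29 to 11.8 CPM on day A, from 6.68 to 15.9 CPM on day B and from 8.73 to 13.0 CPM on day C. All 3 E7 libraries lay above all 12 controls, and the change was 1.67 in log2 units (SE 0.20, edgeR adjusted p = 0.00229). On the single days, the E7 level over the mean of the controls was 1.67, 1.64 and 1.63 in log2 units.

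KRT19, the smallest keratin, which lacks the usual tail domain, lies next to KRT15 on chromosome 17. It read 1090, 1262 and 1076 CPM in the E7 clone. The highest control of the same day had 926, 1041 and 1064 CPM, so the E7 library was above all 4 controls on each day, by little on day C. The change was 0.36 in log2 units (SE 0.10, edgeR adjusted p = 0.0457). It no longer passed without control clone 1 (0.35, adjusted p = 0.106), without control clone 2 (0.32, 0.0758), without the day B library of E7 (0.27, 0.105) or without day A in both groups (0.40, 0.0930).

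KRT6A, a type II keratin of wound-activated keratinocytes, had 0.336, 3.16 and 2.18 CPM in the E7 clone on days A, B and C. Controls had 0.466 to 1.54 CPM on day A, 10.7 to 29.9 CPM on day B and 13.3 to 27.02 CPM on day C. The E7 clone was below every control of the same day, and it too was lower on day A than on days B and C. The change was -2.77 (SE 0.36, edgeR adjusted p = 0.00322). Reads of KRT6A can be shared with its near-identical copies KRT6B and KRT6C, so its count is uncertain to that extent. KRT6A ranked 212 by size among the 2456 called genes, KRT15 441 and KRT19 2289.

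KRT20 and KRT7, the pair used in tumour typing, were low in the E7 clone without passing the test. KRT20, the keratin of differentiated gut epithelium, read 0.740, 0.421 and 0.958 CPM in the E7 libraries on 11, 6 and 11 reads. Control clones 1 to 3 had 4.16 to 10.2 CPM, but control clone 4 had 0.653, 0.997 and 1.56 CPM, and the day A value of E7 lies above that clone's. The fitted change was -2.90 (SE 1.04, edgeR adjusted p = 0.108). Without control clone 4 it was -3.23 with an adjusted p of 0.00354, and without the filter on low counts the adjusted p was 0.0301.

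KRT7, a type II keratin of ductal and glandular epithelia, had 0.807, 1.12 and 1.39 CPM in the E7 clone. That is below every control of the same day, yet the lowest controls were near, at 1.02, 1.24 and 3.14 CPM, while the highest reached 9.22, 21.3 and 29.5 CPM. Its change of -2.85 had an SE of 1.46 (edgeR adjusted p = 0.237). In a fit with libraries as replicates and the labelled day as a block, which counts the 3 libraries of 1 clone as if independent, KRT20 (-2.90, adjusted p = 0.00518) and KRT7 (-2.78, adjusted p = 0.0461) were called as well.

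The other 5 did not pass. KRT80, an epithelial type II keratin that neighbours KRT7 on chromosome 12, read 6.39, 10.5 and 13.6 CPM in E7 against control ranges that ran from 1.38 to 15.3 CPM over the 3 days. Its change was 0.73 (SE 0.80, edgeR adjusted p = 0.596), and 1.51 with an adjusted p of 0.0282 without control clone 3. The main simple-epithelium pair differed little: KRT8 by 0.09 (SE 0.12) and KRT18 by 0.13 (SE 0.14). KRT10 differed by -0.16 (SE 0.14) and KRT23 by -0.26 (SE 0.28).

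**Figure D2:**
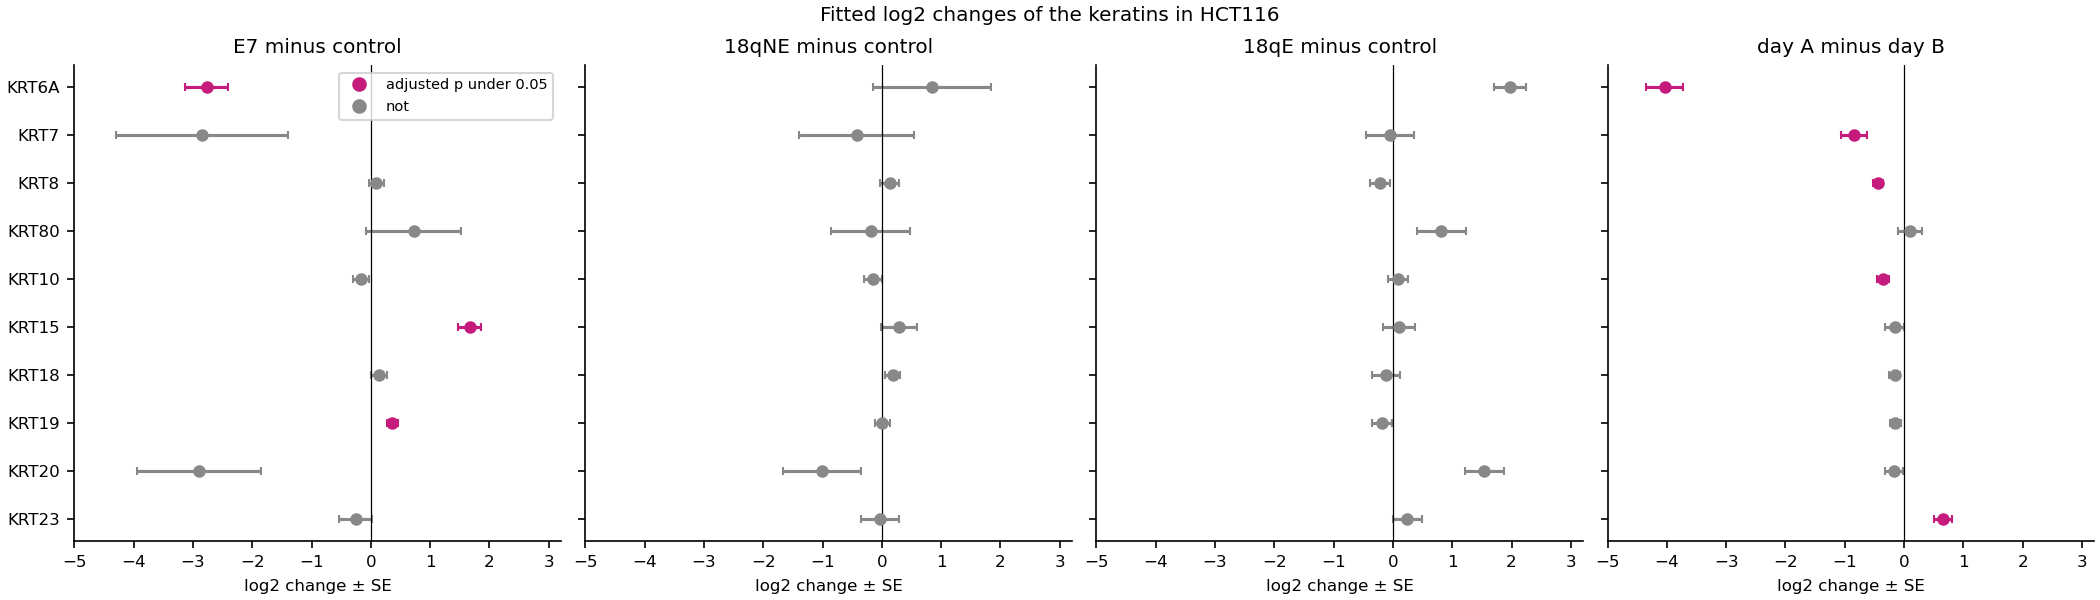
Points are fitted log2 changes of the 10 keratins and bars their standard errors, in 4 HCT116 comparisons, with positive values higher in the group named first. Coloured points passed an adjusted p of 0.05: 3 keratins for E7, 0 for 18qNE, 0 for 18qE and 5 for day A against day B, where KRT6A is at -4.04.

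KRT15 and KRT19 rose beside a neighbour that fell. On chromosome 17 the order is KRT13, KRT15, KRT19, KRT9. KRT13, a type I keratin of mucosal stratified epithelia, read 0.740, 1.33 and 1.83 CPM in the E7 clone, below the control minima of 1.03, 3.49 and 11.4 CPM of the same days. It fell by 2.69 in log2 units (SE 0.52, edgeR adjusted p = 0.0149). KRT9 had a change of -2.29 that did not pass (adjusted p = 0.187). Of 23 other type I keratins 9 were tested and KRT13 was the 1 that passed; of 22 other type II keratins 5 were tested and 0 passed. These shares are near or under the 13.9% called among all tested genes.

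Other filament genes and the proteins that anchor keratin moved in both directions. Among 10 tested intermediate filament genes outside the keratins, 2 rose and 2 fell, beside 13.9% of all tested genes called. VIM, the mesenchymal filament protein, rose by 5.09 (SE 0.31, edgeR adjusted p = 0.000191), from 0.155 to 1.61 CPM in the control libraries of days A to C to 26.0, 21.8 and 18.1 CPM. LMNA, a nuclear lamin, rose by 0.96, DES fell by 2.17 and NES fell by 0.56. Among 14 tested genes that link keratin to junctions or organise it, 2 rose and 1 fell, beside the same 13.9%. The desmosomal cadherin DSC3 rose by 1.82 and DST, which encodes a hemidesmosomal plakin, rose by 0.88. FAM83H, a keratin organiser, fell by 0.45.

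Of the epithelial transcription factors tested, 13 in all, 2 rose and 3 fell, beside 13.9% of all tested genes called. FOXA2 (4.58) and EHF (2.49) rose and HNF4A (-5.06), OVOL1 (-1.29) and KLF4 (-1.02) fell. Marker genes of several cell types were summed as well. The 9 mesenchymal genes summed to 65.5 to 88.8 CPM in E7, with 2 to 3 of the 9 at 0. In controls they summed to 36.6 to 62.1 CPM, with 1 to 4 at 0. The 18qNE clones had 53.8 to 91.8 CPM for the same genes, which spans the E7 range. Of the mesenchymal genes, 6 were tested for E7 and 4 rose (VIM, SPARC, TWIST1 and ZEB1), beside 13.9% of all tested genes called. For 18qNE 5 were tested and 0 passed, where 0.00% of all tested genes did. The 9 stratified epithelium genes had 377 to 386 CPM in E7, within the 324 to 452 CPM of controls. Of these, 6 were tested and TRIM29 fell, the 1 that passed. The 9 intestinal genes summed to 422 to 447 CPM against 486 to 624 CPM, and 7 neuronal and kidney-progenitor genes to 13.3 to 19.8 CPM against 79.2 to 108 CPM. CDH1 fell, 1 of 5 tested intestinal genes. GATA3 and DPYSL3 fell, 2 of 3 tested neuronal and kidney-progenitor genes. The part of these in the keratin values was not tested.

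For 18qNE, the deletion of an element in 3 HCT116 clones, 0 of the 10 keratins passed, with 0.00% of 15524 genes called by edgeR. This fit had no day term, and the clones were of days A, B and A beside control sums of both days. Day was therefore not balanced and added to the spread among the 18qNE clones. In controls, 38.5% of genes were called between days A and B. Unadjusted p was under 0.05 for 505 genes, none of them among the 10, and DESeq2 called 13 genes. The median log2 change of the 10 was -0.01, beside 0.01 over all tested genes. KRT6A differed within the group. The 18qNE clones of day A had 0.703 and 1.35 CPM, within the 0.466 to 1.54 CPM of day A controls. KRT6A in the clone of day B was at 46.7 CPM, above the 10.7 to 29.9 CPM of day B controls. Its change of 0.85 (SE 0.99, edgeR adjusted p = 1.00) turned to -3.16 without that clone, a value that sets clones of day A alone against control sums of days A and B.

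KRT7 and KRT80 were also highest in the 18qNE clone of day B. Only 1 of these clones was extracted on day B, so day and clone cannot be told apart. KRT7 read 0.791 and 1.35 CPM on day A and 9.87 CPM on day B, and KRT80 2.72 and 3.30 CPM on day A and 8.24 CPM on day B. KRT20 had 0.966 and 1.50 CPM on day A and 4.05 CPM on day B, with a change of -1.01 (SE 0.66) that did not pass. None of the other changes passed: KRT8 (0.13, SE 0.16), KRT18 (0.18, SE 0.13), KRT19 (0.00, SE 0.12), KRT15 (0.29, SE 0.31), KRT10 (-0.15, SE 0.15) and KRT23 (-0.03, SE 0.32).

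For 18qE, compared in 2 deletion and 2 control clones on day D, 0 of 10 keratins passed and 0.00% of 15261 genes were called by edgeR. Unadjusted p was under 0.05 for 391 genes, KRT6A and KRT20 among them, and DESeq2 called 19 genes. KRT6A read 9.76 and 11.7 CPM in the 18qE clones and 2.51 and 3.05 CPM in the controls. Its change of 1.98 (SE 0.27) had an unadjusted p of 0.000103 and an edgeR adjusted p of 1.00, while DESeq2 gave 1.98 with an adjusted p of 5.5e-05. In edgeR it did not pass with either control clone left out. With 18qE clone 1 or clone 2 left out the adjusted p was 0.00187 and 0.00236 (changes of 2.06 and 1.89), but there 1 clone stands against 2 controls that alone give the spread, and 107 and 132 genes were called in place of 0.

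KRT20 was at 3.05 and 3.29 CPM without 18qE and at 1.09 and 1.13 CPM in the day D controls. Its change was 1.54 (SE 0.32) with an unadjusted p of 0.00168. All 4 values lie under those of control clones 1 and 2 on days A to C, which were 5.66 to 10.2 CPM. The pairs overlapped for KRT7 (28.5 and 11.4 CPM against 24.1 and 19.0 CPM), KRT15, KRT18, KRT80, KRT10 and KRT23. How many of all genes part without overlap in such pairs was not counted, so this is a description. KRT8 was lower in both 18qE clones (2759 and 2691 CPM) than in both controls (3403 and 3081 CPM) with a change of -0.21 (SE 0.17). KRT19 was lower too (852 and 1090 CPM against 1097 and 1159 CPM), with a change of -0.19 (SE 0.17), and neither passed. The median over the 10 was 0.09 beside 0.00 over all tested genes.

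Without any deletion, the 4 HCT116 control clones differed in 4 of the 10 keratins, where 7.80% of 14988 genes were called (edgeR, day as a term, any difference among clones). The samples here were single libraries, so p measures the spread between libraries of a clone and not between clones. KRT7 stood at 1.67, 2.23, 19.0 and 8.74 CPM in clones 1 to 4, summed over days A to C, with 11.4 times between the lowest and the highest (adjusted p = 1.6e-07). KRT80 stood at 2.74, 2.25, 13.5 and 5.59 CPM (adjusted p = 4.9e-06), with clone 3 the highest and clones 1 and 2 the lowest in both. Among the 1169 called genes KRT7 ranked 33 by size, KRT20 54 and KRT80 72.

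KRT20 was set apart by clone 4, with 7.09, 7.93, 4.68 and 1.10 CPM in clones 1 to 4 (edgeR adjusted p = 7.1e-07). Clone 4 was below the other clones on each of the 3 days. KRT23, a type I keratin studied in colon cancer cells, was lowest in clone 3 at 11.9 CPM, beside 21.6, 20.2 and 17.7 CPM in clones 1, 2 and 4 (adjusted p = 0.0183). It no longer passed without day B (adjusted p = 0.0823), without day C (0.164) or without the day term (0.630).

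**Figure D3:**
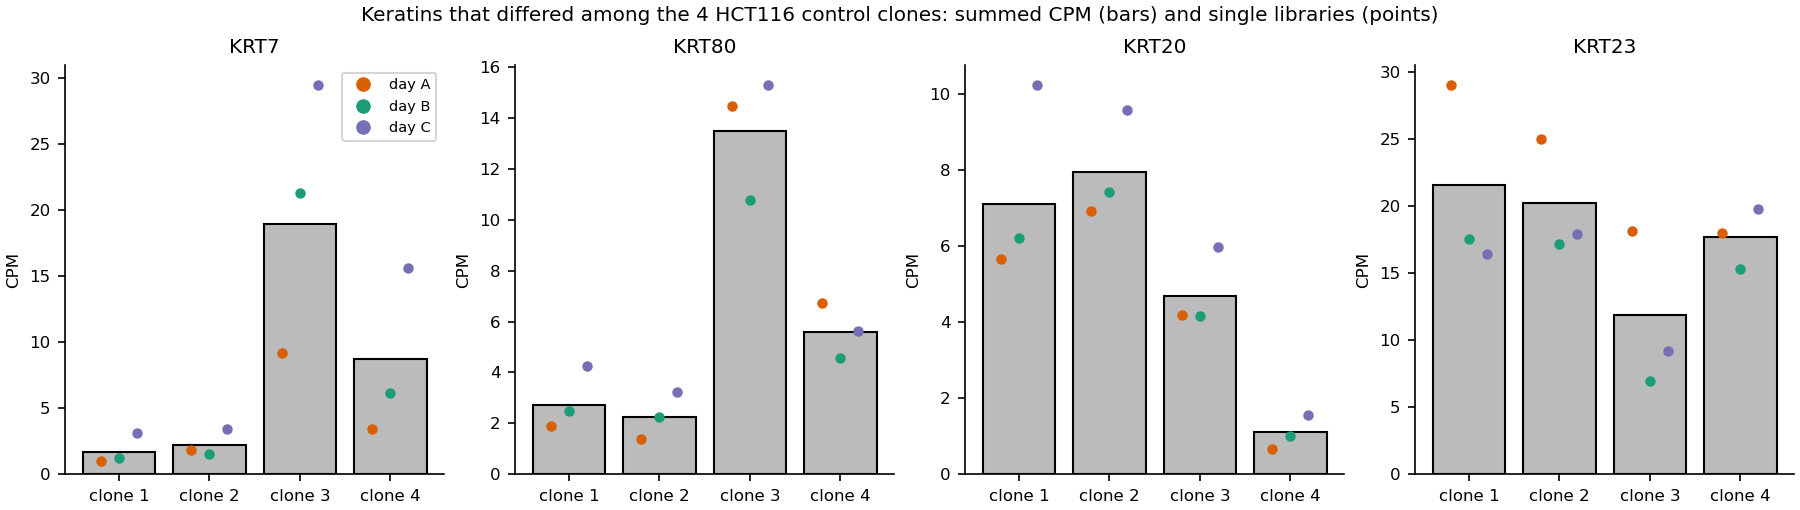
Bars give the CPM of the 4 HCT116 control clones, summed over days A to C, for the 4 keratins that differed among clones, and points are single libraries coloured by day. KRT7 and KRT80 are highest in clone 3 (19.0 and 13.5 CPM), KRT20 is lowest in clone 4 (1.10 CPM) and KRT23 lowest in clone 3 (11.9 CPM).

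The main simple-epithelium keratins did not pass among clones: the largest difference between clones was 0.28 for KRT8, 0.40 for KRT18 and 0.23 for KRT19 in log2 units. Among the other keratins, KRT13 and KRT14 differed of 5 tested type I genes and KRT81 of 2 tested type II genes, beside 7.80% of all tested genes. The 50 and 32 reads of KRT14 in clone 3 on days B and C were the highest of the 12 libraries, which otherwise had 0 to 10. Both KRT14, which is similar in sequence to KRT16 and KRT17, and KRT81, a hair keratin with near-identical copies, are uncertain to the extent that reads are shared. Of 12 tested epithelial transcription factors 7 differed among clones, beside the same 7.80%, EHF by 1.71 and GRHL2 by 1.37 with the largest ranges.

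The control clones also allowed extraction days to be compared within clones. Between days A and B 5 of 10 keratins were called, a share near the background, since 38.5% of 14988 genes were called (edgeR, clone as a term). KRT6A was lower on day A in all 4 clones: 1.38, 1.04, 1.54 and 0.466 CPM in clones 1 to 4 on day A, and 16.3, 16.4, 29.9 and 10.7 CPM on day B. The change was -4.04 (SE 0.32, adjusted p = 4.4e-06), which ranked 3 by size among the 5773 called genes.

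Between days A and C 5 of 10 keratins were called again, where 32.2% of genes were. KRT6A had 13.3, 15.8, 22.6 and 27.02 CPM in clones 1 to 4 on day C, a change of -4.17 for day A (SE 0.32, edgeR adjusted p = 1.7e-05), and it ranked 1 among 4831 called genes. The comparisons of day A with the other days share the day A libraries. What besides the date differed between days is not in the labels and cannot be told apart from the day.

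KRT7 and KRT8 were also lower on day A. KRT7 rose from 1.02, 1.80, 9.22 and 3.45 CPM on day A to 3.14, 3.44, 29.5 and 15.6 CPM on day C in clones 1 to 4, a change of -1.76 for day A (SE 0.21, edgeR adjusted p = 9.0e-05). Against day B the change was -0.85 (SE 0.22, adjusted p = 0.00745), and -0.42 with an adjusted p of 0.261 without clone 3. KRT8 was at 1837 to 2344 CPM on day A, 2561 to 2937 CPM on day B and 2577 to 3730 CPM on day C. Day A did not overlap the other days, and how many of all genes part in this way was not counted. The changes of KRT8 were -0.43 (SE 0.09, edgeR adjusted p = 0.00132) and -0.54 (SE 0.09, adjusted p = 0.000436). Its partner KRT18 did not pass, at -0.15 (SE 0.09) and -0.16 (SE 0.09).

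KRT23 went the other way and was higher on day A. It read 18.0 to 29.0 CPM on day A, 6.96 to 17.5 CPM on day B and 9.15 to 19.8 CPM on day C, with changes of 0.66 (SE 0.15, edgeR adjusted p = 0.0035) and 0.49 (SE 0.15, adjusted p = 0.0217). Against day C it no longer passed without clone 1, 2 or 3 (adjusted p of 0.0774, 0.0892 and 0.0751). KRT10 was lower on day A against day B (-0.36, adjusted p = 0.0125), which ended without clone 2 (0.121) or clone 3 (0.0973). KRT20 was lower on day A against day C (-0.71, SE 0.14, adjusted p = 0.00224).

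**Figure D4:**
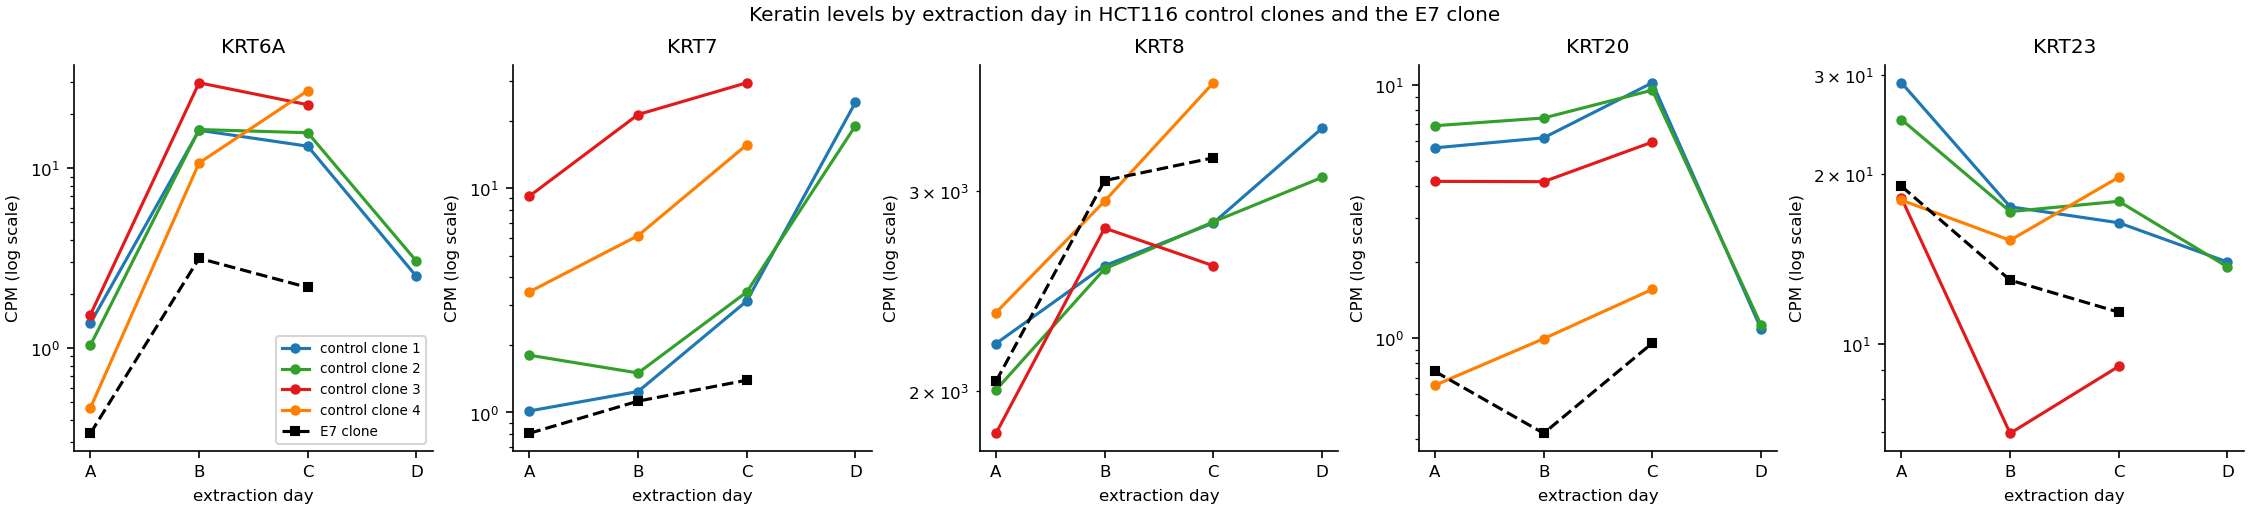
Lines join the libraries of 1 HCT116 clone across extraction days A to D, with CPM on a log scale for 5 keratins, and the dashed line is the E7 clone. KRT6A is lowest on day A in every clone (0.466 to 1.54 CPM in controls), KRT7 and KRT20 of clones 1 and 2 take their highest and lowest values on day D, and the E7 clone keeps the day pattern of KRT6A at a lower level.

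Day D, with clones 1 and 2, set the keratins further apart: 7 of 10 were called against day A, where 15.6% of 14782 genes were. KRT7 reached 24.1 and 19.0 CPM in clones 1 and 2, which had 1.02 and 1.80 CPM on day A (-4.02 for day A, SE 0.26, edgeR adjusted p = 1.2e-05), and ranked 10 among 2311 called genes. KRT20 dropped from 5.66 and 6.92 CPM on day A to 1.09 and 1.13 CPM on day D (2.39, SE 0.24, adjusted p = 0.000305). The keratins used in tumour typing thus moved in opposite directions in the same clones. KRT6A on day D, at 2.51 and 3.05 CPM, lay between day A and days B and C (-1.29, SE 0.27, adjusted p = 0.0119).

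KRT80 (-1.81), KRT8 (-0.72) and KRT19 (-0.44) were lower on day A than on day D, and KRT23 (0.86) was higher. Day D libraries were also deeper, with 22972412 to 24887785 gene counts, and 15.6% to 24.8% of their reads aligned at several places against 12.3% to 13.8% on days A to C. The part of these in the keratin values was not tested.

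Some keratins outside the 10 were lower on day A too. Of 7 tested, 4 (KRT13, KRT14, KRT6B and KRT81) were lower on day A than on day B and on day C, 0 were higher and 3 did not pass, beside 38.5% and 32.2% of all tested genes called. KRT13 averaged 3.64, 7.77 and 13.8 CPM in control libraries of days A, B and C. KRT14 had 4 reads over the 4 control libraries of day A, all in clone 3, and 67 and 48 reads on days B and C. KRT6B had 4, 17 and 22 reads on days A, B and C, and KRT81 had 10, 27 and 44. Reads of KRT6B can be shared with its near-identical copy KRT6A, so its day difference may not be separate from that of KRT6A. Genes that link or organise keratin split between directions: of 13 tested, 6 were higher and 3 lower on day A than on day B, beside the 38.5% of all genes, with PPL, a cornified-envelope plakin, higher by 1.18 and JUP, plakoglobin, higher by 0.69. Of 12 epithelial transcription factors, beside the same 38.5%, 6 were higher on day A than on day B and 0 lower, with EHF at 1.14 and ELF3 at 0.95.

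In HEK293, 3 of the 4 listed keratins were lower than in HCT116 controls, where 57.0% of 11805 genes were called (edgeR, HCT116 control clones summed over days A to C). KRT8 read 377 and 220 CPM in HEK293 controls and 2360 to 3044 CPM in the HCT116 clones (-3.36, SE 0.25, adjusted p = 4.6e-05). KRT18 read 110 and 114 CPM against 786 to 1081 CPM (-3.26, SE 0.17, adjusted p = 8.9e-06). KRT19 read 98.3 and 12.8 CPM against 828 to 982 CPM (-4.29, SE 0.78, adjusted p = 0.00282).

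KRT10 was the exception, at 42.3 and 51.6 CPM in HEK293 and 32.7 to 40.7 CPM in the HCT116 clones (0.15, SE 0.15, edgeR adjusted p = 0.422). The 4 keratins took 0.0399% to 0.0988% of gene counts in HEK293. Of 7 other intermediate filament genes tested, 4 were higher in HEK293 and 2 lower, beside 57.0% of all tested genes called. VIM (9.94), INA (12.12), NEFM (7.32) and SYNM (2.37) were higher in HEK293, and the lamins LMNA (-2.65) and LMNB2 (-0.92) lower. The genes that the HEK293 files list took 95.6% to 97.0% of the counts in HCT116 libraries, so CPM of both lines rest on slightly different totals. The 2 lines were extracted on different days.

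E7 deletion in HEK293 left 0 of the 4 keratins past the test, where 0.0254% of 11806 genes were called by edgeR (3 genes). Unadjusted p was under 0.05 for 1487 genes, KRT8 and KRT18 among them, and DESeq2 called 463 genes but none of the 4. All 4 fitted changes were above 0, with a median of 0.62 beside -0.01 over all genes. KRT8 read 498 and 567 CPM in the E7 libraries against 377 and 220 CPM (0.78, SE 0.29, edgeR adjusted p = 0.370). KRT18 read 157 and 167 CPM against 110 and 114 CPM (0.47, SE 0.18, adjusted p = 0.389).

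KRT19 in HEK293 differed between the control libraries. The controls had 98.3 and 12.8 CPM, 2799 and 340 reads, and the E7 libraries 140 and 195 CPM, above both. The change of 1.56 (SE 0.86, edgeR adjusted p = 0.505) was 3.59 without control 1 and 0.74 without control 2, each with 1 control left and an assumed like spread (adjusted p of 9.4e-05 and 0.0348), where 6210 and 1914 genes were called in place of 3. Without E7 library 1 it was 1.79 (adjusted p = 0.0494), with 74 genes called. KRT10 had 51.2 and 59.4 CPM against 42.3 and 51.6 CPM, with the groups overlapping.

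Beside the keratins of HEK293, the listed genes that passed were NEFM and PKP3. Both E7 libraries are labelled as 1 clone, so deletion and clone cannot be told apart in these values. NEFM, a neurofilament subunit, rose by 5.54 (SE 0.28, edgeR adjusted p = 0.0198), from 0.632 and 0.679 CPM in the controls to 28.7 and 35.8 CPM in the E7 libraries. PKP3, a desmosomal plakophilin that binds the plaque to which keratin filaments attach, fell by 7.68 (SE 0.31, adjusted p = 0.0125), from 41.7 and 48.6 CPM to 0.201 and 0.255 CPM. In HCT116, PKP3 was at 125 to 134 CPM in the E7 libraries and at 129 to 177 CPM in the controls, and its change differed between the lines by -7.47 (SE 0.27, edgeR adjusted p = 1.5e-05).

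The change upon E7 deletion was compared between the lines by the interaction term of 1 fit, in which 3.38% of 11849 genes differed and 0 of the 4 keratins did. Unadjusted p was under 0.05 for 2264 genes and for none of the 4. HEK293 minus HCT116 was 0.70 (SE 0.34) for KRT8, 0.35 (SE 0.22) for KRT18, 1.21 (SE 1.03) for KRT19 and 0.34 (SE 0.26) for KRT10. For KRT19 it was 3.26 with an edgeR adjusted p of 0.000163 without HEK293 control 1, and KRT8 then passed too (1.09, adjusted p = 0.00339).

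**Figure D5:**
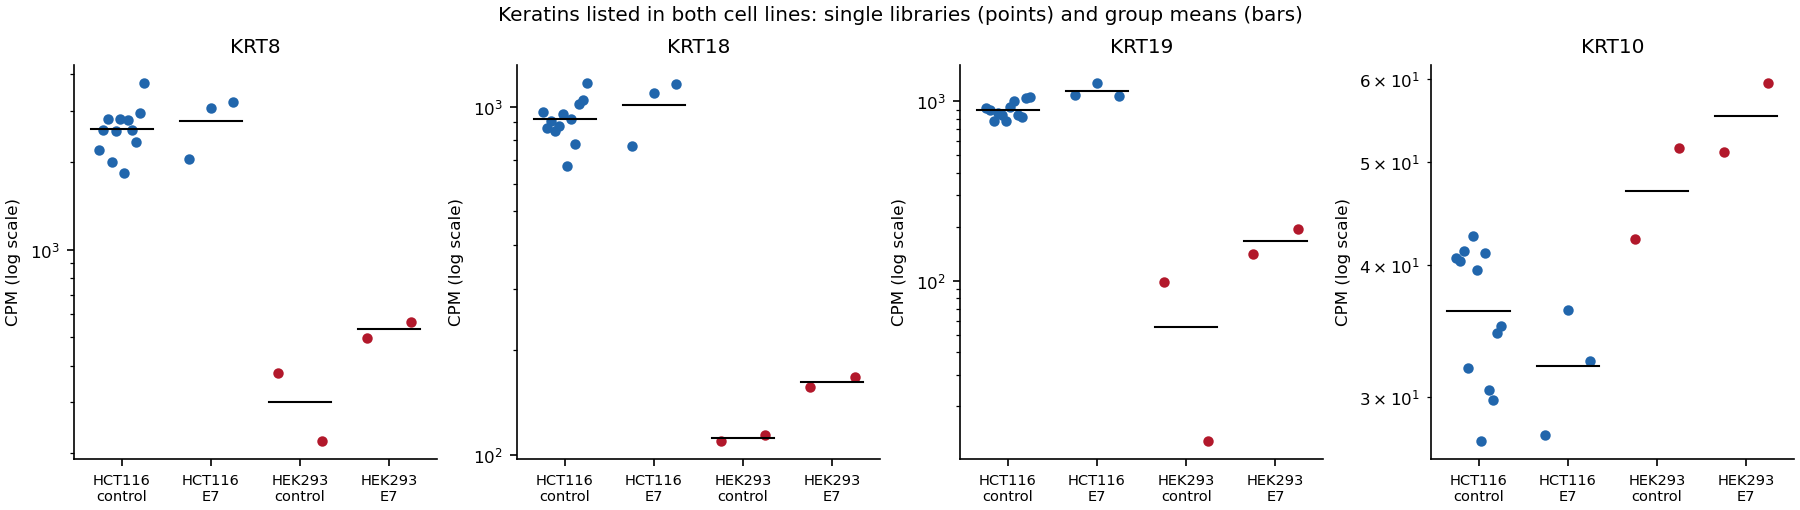
Points are libraries and bars group means, with CPM on a log scale, for the 4 keratins listed in both lines. KRT8, KRT18 and KRT19 are lower in HEK293 than in HCT116, KRT10 is not, and 1 HEK293 control library is low for KRT19 (12.8 CPM).

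Across the 22 HCT116 libraries, the levels of some keratins went together on the log2 (CPM + 0.5) scale. Among the 36 pairs of the 9 keratins other than KRT20, which averaged under the minimum of 5 CPM set for correlations, the highest were those of KRT15 with KRT19 (r = 0.76) and of KRT8 with KRT18 (r = 0.74), each a pair of adjacent genes, and in RefSeq the KRT8 and KRT18 spans overlap. Without strand-specific counts, reads from such an overlap cannot be assigned. The lowest was that of KRT23 with KRT80 (r = -0.63). The points share clones, days and libraries, so these values are a description.

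Over 11017 genes, those most like KRT6A were INTS10 (r = 0.93), EMC7 (0.92) and GLA (0.92). KRT8 was most like TUBA1C (0.87), KRT10 like ZDHHC12 (0.88), KRT18 like BRD7 (0.83), KRT19 like CLIC1 (0.82), KRT23 like KLF9 (0.83), KRT80 like HDLBP (0.82) and KRT7 like CSTB (0.82). KRT20 was not searched.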

How the data were processed

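The 26 RNA libraries were analysed; the 6 chromatin samples were not analysed here. The authors deposited whole-number counts of reads per gene, 1 library per file, with no normalization. Per the submitters' processing notes, TopHat2, HTSeq 0.6.1, Partek 3 and bedtools were among the tools, with build hg19; order, annotation and strand setting are not stated in the labels, so reads of overlapping or near-identical genes cannot be told apart. Summary lines stayed out of totals and tests: on days A to C 7.78% to 14.3% of reads lay outside genes, 3.03% to 3.60% were ambiguous and 12.3% to 13.8% aligned at several places, and on day D 6.34% to 7.21%, 2.86% to 3.36% and 15.6% to 24.8%. The HEK293 files hold no such lines.

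In the comparisons of deletions and of lines the clone was the replicate, except in HEK293 E7, whose 2 libraries are labelled as 1 clone. E7 in HCT116 was tested as 1 clone against 4, each summed over days A to C; its spread comes from the 4 control clones, and the lone clone is assumed to vary alike. The 18qNE clones (3) were set against the control clones' sums of days A and B, 18qE as 2 against 2, and HEK293 as 2 against 2, where the E7 pair may be technical repeats. P-values there measure the spread between these samples. Control clones and extraction days were compared over single control libraries, with day or clone as the other term. For clones the replicate was the extraction day, and for days it was the clone. Those p-values measure the spread between libraries that both terms leave. All genes were fitted with edgeR 4.0.16 (TMM, filterByExpr with a minimum count of 10, quasi-likelihood F test, 2-sided) in R 4.3.3, and p was adjusted over all genes by Benjamini-Hochberg with a threshold of 0.05. All 10 keratins passed the filter in every HCT116 comparison and the 4 listed ones in HEK293. The code was tested on simulated data. DESeq2 1.42.0, RLE factors, no filter, left-out samples and blocks were alternatives. "Rose" and "fell" are used of genes past the threshold; among clones, a change is the difference between the highest and the lowest clone.

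The named genes were the 10 keratins in every comparison, up to 4 passing genes per list with the largest change, and the genes with the highest Pearson r for keratins of at least 5 CPM (log2(CPM + 0.5)). That search is not reported here for KRT15. The keratins, lists and tests were chosen with earlier results of these data known. Symbols and gene order came from RefSeq tables of GRCh38.p14.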

Additional observations from a re-analysis of the deposited data

How the results depend on the processing

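Of 740 values of single keratins under alternatives, 647 kept their direction and, where tested, their side of the threshold. The 647 include values against day D with a clone left out, for which no test was possible. Another 31 newly passed, 22 no longer passed and 40 changed sign. The cause was not tested, beyond the fewer samples of a left-out library. The E7 changes of KRT15 and KRT6A in HCT116 kept direction and call under every alternative run except the use of 18qNE clones as controls, with changes of 1.57 to 1.80 for KRT15 and -3.47 to -2.20 for KRT6A. That alternative gave 79 called genes and 0 keratins, and changed the sign of KRT18 (-0.11) and KRT8 (-0.026). With day as a replicate block and libraries as replicates, 5178 genes and 5 keratins were called. Leaving out a sample in turn gave 1477 to 3087 genes and, for KRT8, changes of -0.024 to 0.30.

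For 18qNE, no filter gave 16 genes, DESeq2 13, and single libraries with day as a term 3, and left-out samples 0 to 1. KRT19, at 0.00, changed sign with RLE factors (-0.0014), without the filter (-0.032), with DESeq2 (-0.0014) and with the clone number as a replicate block (-0.027), which also gave -1.30 for KRT6A and 0.17 for KRT80. Over left-out clones the ranges were -3.16 to 1.38 for KRT6A, -2.36 to 0.73 for KRT7, -0.88 to 0.64 for KRT80, -0.53 to 0.26 for KRT23, -0.0098 to 0.61 for KRT15, -0.090 to 0.13 for KRT19 and -0.10 to 0.27 for KRT8. Leaving out 18qNE clone 2, the day B library, gave the lowest value of KRT6A, KRT7, KRT80 and KRT8.

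For 18qE, DESeq2 called 19 genes and 1 keratin, and left-out clones gave 0 to 132 genes and 0 to 1 keratins. Ranges were -0.93 to 0.49 for KRT7, -0.39 to 0.15 for KRT18, -0.17 to 0.43 for KRT15, -0.081 to 0.50 for KRT23 and -0.024 to 0.21 for KRT10. For E7 in HEK293, DESeq2 called 463 genes, summed E7 libraries 71 and the replicate number as a block 670 genes and 1 keratin, KRT19 (2.12, adjusted p = 0.00117). Left-out libraries gave 74 to 6210 genes (the most without control 1) and 0 to 3 keratins (3 without control 1 and 3 without control 2), and -0.013 to 0.36 for KRT10.

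The difference between the lines in the E7 change gave 1177 genes with DESeq2, and 35 to 4701 genes and 0 to 2 keratins over left-out samples. HEK293 against day D controls gave 3984 genes, and KRT10 ranged from -0.048 to 0.33 over left-out samples. Among control clones, no filter gave 1959 genes and 8 keratins and no day term 249 genes, and left-out days gave 308 to 1694. Without the clone term 2 keratins were called for day A against day B and 2 against day C. Left-out clones gave 2688 to 6365 genes, 3 to 6 keratins and -0.058 to 0.25 for KRT80 against day B, and 1901 to 4986 genes, -0.042 to 0.074 for KRT15 and -0.084 to 0.13 for KRT19 against day C. Against day D, leaving out a clone left no residual degrees of freedom and gave values only.

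In deviations from the group means, samples of the same number correlated at 0.10 in the 18qE comparison, 0.37 in HEK293 and -0.26, -0.27 and 0.14 in 18qNE. No label ties these numbers to a shared source, 18qE and HEK293 have 2 pairs each and the 18qNE values are not all above 0.1, so the numbers were not taken as pairs; whether the HEK293 numbers mark pairs was not tested further. The block changed no other call of a keratin. Single keratins with few reads (5 reads of KRT6A and 6 of KRT20 in the lowest E7 libraries) limit the precision of their changes.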
